A study of Homo sapiens with 6 samples.

Results

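The synthesis of cholesterol, fatty acids and phospholipids was examined through 36 genes in CAL-27 cells in which XBP-1s, the spliced form of the transcription factor XBP1, was silenced. The genes were chosen by function, as enzymes of the sterol pathway, regulators of the sterol regulatory element-binding proteins (SREBPs) with a sterol carrier, and enzymes that make fatty acids, glycerolipids and phospholipids, and they were read from every array probe whose RefSeq accession maps to one of their symbols. They are 36 of 16821 genes with a symbol and a tested probe, and they have 43 of the 27624 tested probes. A single probe represented 30 of the genes, 2 probes represented 5 and 3 probes represented HSD17B7.

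CAL-27 is an established human line derived from squamous carcinoma of the tongue. Cells stably transduced with a short hairpin RNA against XBP-1s (shXBP-1s, n = 3) were compared with cells carrying the control hairpin (shCtrl, n = 3), with total RNA of each sample on its own Cy3-labelled Agilent array. The arrays were made to find genes that depend on XBP-1s in a study of the unfolded protein response and antigen presentation. No source says whether the 3 samples of a group came from separate transductions or cultures. A p-value here sets the group difference against the spread between these samples, moderated over the tested probes. It may not extend to other transductions or cultures.

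Cells read their sterol supply in the membrane of the endoplasmic reticulum, where SCAP escorts the SREBPs and the INSIG proteins hold SCAP back while sterols are plentiful. When sterols run low, the SREBPs are carried to the Golgi, cut, and sent to the nucleus, where SREBP-2 (gene SREBF2) mainly drives sterol genes and SREBP-1 (SREBF1) mainly drives fatty acid genes. XBP-1s, made after IRE1α splices XBP1 mRNA under endoplasmic reticulum stress, is known to raise phosphatidylcholine synthesis and endoplasmic reticulum membrane when overexpressed, and to be needed for lipid synthesis in liver.

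XBP1 mRNA itself was lower in every shXBP-1s sample. Its level, here and below given as log2 signal with the array's 75th percentile set to 0, was 1.88, 1.85 and 1.87 on the shCtrl arrays and -0.50, -0.54 and -0.52 on the shXBP-1s arrays. The change was -2.39 ± 0.04 (log2 fold change ± SE, adjusted p = 2.81e-07). The probe is not known to tell spliced from unspliced XBP1 mRNA. On each array 82.1% to 84.8% of the spots stood well above background and none was saturated. The shXBP-1s arrays were brighter, with a 75th percentile of 792.0 to 983.4 against 687.4 to 761.3 in shCtrl. All 7 epithelial and squamous markers were above background on the 6 arrays, with a summed level between 5860% and 6080% of the 75th percentile in shCtrl and between 6910% and 7620% in shXBP-1s. Most of this sum was CDH1 and EPCAM, which changed by 0.13 and 0.01 without passing the test described below. KRT14 (1.58), KRT17 (1.53), KRT5 (1.43), DSG3 (1.17) and TP63 (0.93) rose, each past the test. Of 5 fibroblast markers 4 were above background, with COL3A1 on none of the arrays, and their summed level was 94.5% to 104% in shCtrl and 60.8% to 63.1% in shXBP-1s. The fibroblast markers did not move together, since PDGFRB (-1.28) and COL1A1 (-0.63) fell while LUM rose (1.94, adjusted p = 4.25e-06). The summed level of the 4 leukocyte markers with a probe, most of it CD14, was 458% to 640% and 323% to 348%, and that of the 4 endothelial markers 24.3% to 29.9% and 27.8% to 29.7%. Their part in the results was not tested. RNA came from whole cultures, in which fewer cells of a kind and less RNA per cell cannot be told apart. Arrays were assigned to slides by their scan identifiers. On this reading shCtrl 2 and 3 lay on slide 1 and shCtrl 1 and the 3 shXBP-1s samples on slide 2. A comparison within a slide therefore rests on shCtrl 1 alone.

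The lipid genes did not move as a block. Each of the 43 probes was well above background on every array. With a gene read from its brightest probe, 18 of the 36 genes differed between shXBP-1s and shCtrl at an adjusted p below 0.05, beside 46.4% of all tested genes. Of these, 10 rose, beside 18.9% of all genes, and 8 fell, beside 27.5%. A change of at least 2-fold was seen for 1 gene, TM7SF2, beside 5.18% of all genes. The samples of the groups did not overlap for 20 of the 36 genes, beside 56.5% of all genes. Counted by probe, 23 of the 43 passed the test, 12 higher and 11 lower, beside 41.7% of all probes. The median log2 fold change of the 36 genes was 0.001 and the median of its size was 0.22, and the same medians over all tested genes were -0.04 and 0.23. The share of lipid genes that changed was therefore close to that of all genes, and the lower counts and higher counts among them were nearly even.

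**Figure D1:**
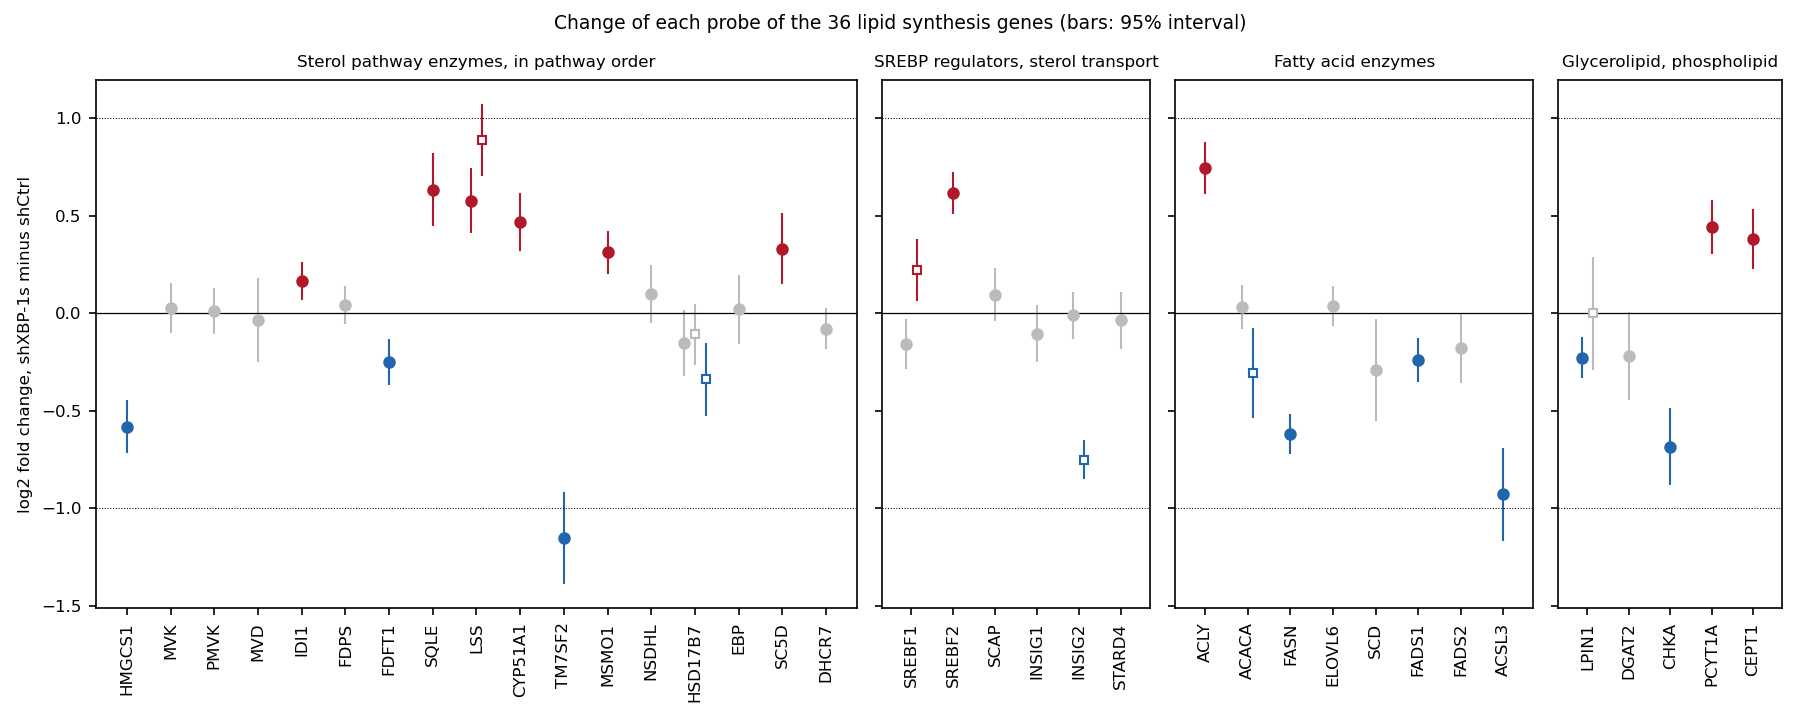
Log2 fold change (shXBP-1s minus shCtrl, y axis) of each of the 43 probes of the 36 genes, by role and, for the sterol enzymes, in pathway order. Filled circles are the brightest probe of a gene, open squares its other probes, bars the 95% interval, red a rise and blue a fall at an adjusted p below 0.05, grey no call, and dotted lines a 2-fold change. Rises and falls stand side by side within each role, and TM7SF2 at -1.15 lies past the 2-fold line.

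The 17 sterol pathway enzymes divided into 6 that rose, 3 that fell and 8 that did not pass, with a median change of 0.03. A call was made for 52.9% of them, beside 46.4% of all genes, of which 18.9% rose and 27.5% fell. Along the pathway, the 7 enzymes that lead up to squalene held 1 of the rises and 2 of the falls, and the 10 enzymes from squalene epoxidase on held 5 of the rises and 1 of the falls. This division of the pathway was made after the values were seen.

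HMGCS1, the cytosolic synthase that makes HMG-CoA at the head of the pathway, had levels of 1.05, 0.88 and 0.90 in shCtrl and 0.41, 0.35 and 0.32 in shXBP-1s. Every shXBP-1s sample lay below every shCtrl sample. It fell by 0.58 ± 0.06 on the log2 scale (adjusted p = 1.31e-04). FDFT1, the synthase that joins farnesyl units into squalene, fell by a smaller 0.25 ± 0.05 (adjusted p = 0.00495). Before scaling, FDFT1 read 4013, 4251 and 4272 in shCtrl and 4949, 4267 and 3621 in shXBP-1s. These signals overlap, so the FDFT1 fall comes with the scaling. IDI1, the isopentenyl diphosphate isomerase, rose by 0.16 ± 0.04 (adjusted p = 0.0155). That call was lost with the slide as a block (adjusted p = 0.102) and without shCtrl 2 (adjusted p = 0.0521) or shXBP-1s 2 (adjusted p = 0.066). The kinases MVK and PMVK, the decarboxylase MVD and the prenyl synthase FDPS, which lie between them, did not pass, with changes between -0.03 and 0.04.

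SQLE, squalene epoxidase, which carries out the first oxygen-requiring step, had levels of 1.38, 1.18 and 1.23 in shCtrl and 1.75, 1.93 and 2.02 in shXBP-1s. The groups did not overlap, and SQLE was 1.55-fold higher in shXBP-1s (log2 fold change 0.64 ± 0.08, adjusted p = 4.36e-04). The enzymes next in line rose as well. LSS, which cyclizes the epoxide to lanosterol, rose by 0.58 ± 0.07 on its brighter probe (adjusted p = 3.91e-04) and by 0.89 ± 0.08 on its dimmer one (adjusted p = 7.21e-05). CYP51A1, the lanosterol demethylase, stood at 2.11, 1.94 and 1.92 in shCtrl and at 2.41, 2.43 and 2.53 in shXBP-1s, a rise of 0.47 ± 0.06 (adjusted p = 6.96e-04). Smaller rises were measured for MSMO1, the methylsterol monooxygenase, at 0.31 ± 0.05 (adjusted p = 0.00112), and for SC5D, a late sterol desaturase, at 0.33 ± 0.08 (adjusted p = 0.0102). The SC5D call was lost with the slide as a block (0.22, adjusted p = 0.124), and under normexp background correction SC5D read -0.15 (adjusted p = 0.668) and MSMO1 0.26 without passing (adjusted p = 0.0968).

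TM7SF2, a reductase that acts on the product of CYP51A1, went the other way. Its levels were -3.66, -3.53 and -3.63 in shCtrl and -4.63, -4.74 and -4.91 in shXBP-1s, so that the groups were far apart. It was 2.22-fold lower in shXBP-1s (log2 fold change -1.15 ± 0.10, adjusted p = 6.69e-05). The probe is dim, with signals of 54.5, 66.0 and 60.9 before scaling in shCtrl and 39.8, 33.5 and 26.4 in shXBP-1s, and the fall is sensitive to background correction. Under normexp it read -1.09 without passing (adjusted p = 0.252), and with quantile normalization added it passed at -0.46. LBR, which catalyses the same reduction and was looked up after these values were seen, also fell, by 0.83 ± 0.04 (adjusted p = 4.44e-06), from levels of 2.29, 2.32 and 2.33 to 1.50, 1.46 and 1.49. LBR, also a protein of the inner nuclear membrane, is not among the 36 genes.

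The remaining sterol enzymes, NSDHL, HSD17B7, EBP and DHCR7, did not pass by their brightest probe, with changes between -0.15 and 0.10. The 95% intervals of the 8 sterol enzymes without a call together reached from -0.32 to 0.25. The dimmest of the 3 HSD17B7 probes fell by 0.34 ± 0.08 (adjusted p = 0.0115) while the others changed by -0.15 and -0.11 without passing, and its call was lost without shXBP-1s 2 (adjusted p = 0.0593). HSD17B7, FDPS and CYP51A1 have near-identical pseudogene copies, and whether their probes tell the copies apart was not tested.

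**Figure D2:**
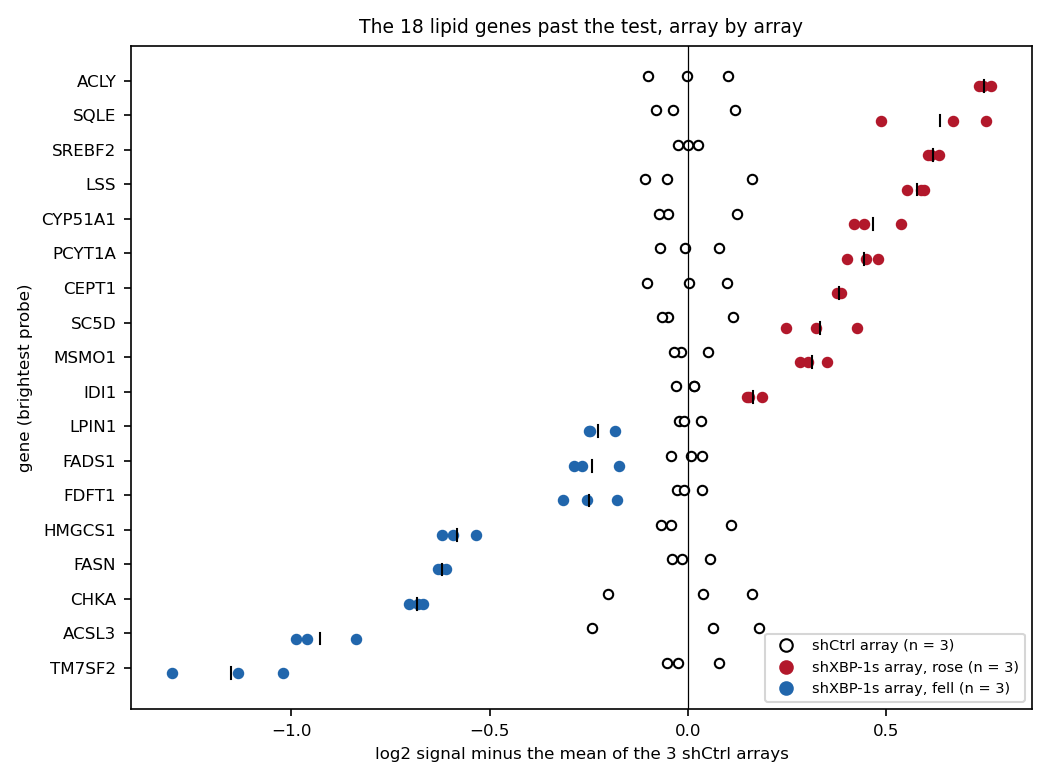
Levels of the 18 genes that passed the test on every array, by their brightest probe, as the log2 signal minus the mean of the 3 shCtrl arrays (x axis). Open circles are shCtrl arrays, filled circles shXBP-1s arrays, and the short line is the shXBP-1s mean. For each gene the 3 shXBP-1s arrays lie outside the range of the 3 shCtrl arrays, from -1.15 for TM7SF2 to 0.75 for ACLY on the mean.

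Among the 6 SREBP regulators and sterol carriers, SREBF2 rose and the other 5 did not pass by their brightest probe (16.7% with a call, beside 46.4% of all genes). SREBF2 had levels of -1.26, -1.31 and -1.29 in shCtrl and -0.68, -0.66 and -0.68 in shXBP-1s. The samples of each group lay close together, and the groups were clearly apart. SREBF2 mRNA was 1.53-fold higher in shXBP-1s (log2 fold change 0.62 ± 0.05, adjusted p = 2.74e-05). Under normexp background correction the call was lost (0.36, adjusted p = 0.0547). An mRNA level does not show how much of the SREBP-2 protein is cut and nuclear.

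SREBF1 gave opposite signs on its probes. On the bright probe its levels were 2.23, 2.19 and 2.22 in shCtrl and 1.96, 2.05 and 2.15 in shXBP-1s, a change of -0.16 ± 0.06 that did not pass (adjusted p = 0.0527) though the groups did not overlap. Before scaling, the same probe read 3217, 3464 and 3524 in shCtrl and 3830, 3706 and 3511 in shXBP-1s, so the sign of this small difference comes with the scaling to the 75th percentile. On the dim probe the levels were -2.25, -2.44 and -2.38 in shCtrl and -2.07, -2.17 and -2.17 in shXBP-1s, a rise of 0.22 ± 0.07 (adjusted p = 0.0342). Under normexp background correction this probe read -0.14 and under the slide block 0.12, neither past the test, and leaving out any array other than shCtrl 1 also ended its call. Which SREBF1 transcripts each probe reads was not tested.

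Of the INSIG genes, whose products retain SCAP, INSIG1 did not pass and the INSIG2 probes differed in the size of their change. INSIG1, itself a classical SREBP target, had levels of -0.68, -0.78 and -0.73 in shCtrl and -0.94, -0.81 and -0.75 in shXBP-1s, which overlapped (log2 fold change -0.10, 95% interval -0.25 to 0.04, adjusted p = 0.224). The brighter INSIG2 probe read 1.45, 1.40 and 1.34 in shCtrl and 1.32, 1.43 and 1.41 in shXBP-1s, a change of -0.01 ± 0.05 (adjusted p = 0.886). The dimmer INSIG2 probe, with 0.74, 0.80 and 0.80 in shCtrl and 0.05, 0.02 and 0.02 in shXBP-1s, fell by 0.75 ± 0.04 (adjusted p = 7.81e-06). Both INSIG2 probes lay above the 75th percentile of every array. SCAP changed by 0.10 and STARD4, a cytosolic sterol carrier, by -0.04, without passing.

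**Figure D3:**
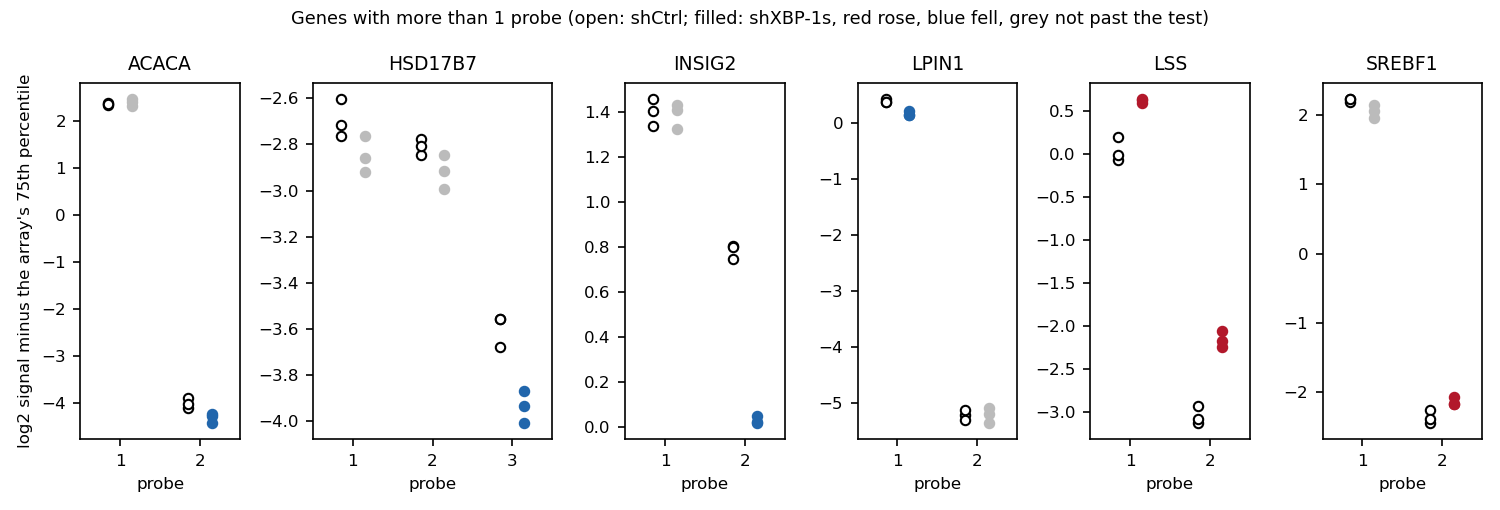
Levels (log2 signal relative to the 75th percentile of the array, y axis, with its own scale in each panel) of the 6 genes with more than 1 probe, numbered from the brightest probe. Open circles are the 3 shCtrl arrays and filled circles the 3 shXBP-1s arrays, red where the probe rose, blue where it fell and grey where it did not pass. LSS rose on both probes, whereas INSIG2 fell on probe 2 with probe 1 at -0.01, and SREBF1 had -0.16 on probe 1 and 0.22 on probe 2.

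The promoters of 31 of the 36 genes were found in the RefSeq promoter table for GRCh38.p14, as the 250 bases before and 50 bases after each start. CHKA, DGAT2, FASN, FDFT1 and SQLE were not among them. The letters searched, on both strands, were TCACNCCAC, a form of the sterol regulatory element, CCAAT, the box bound by NF-Y, ACGTG, the core of the XBP1 and ATF6 elements, and CCACG, the end of the endoplasmic reticulum stress element. ACGTG and TCACNCCAC can each overlap CCACG. Of the 15 sterol enzyme promoters, 12 held CCAAT (80.0%), beside 35.7% of all 27305 promoters of this length. Over the 31 promoters, 18 held CCAAT, 22 held CCACG (70.97% beside 37.9% of all promoters) and 8 held ACGTG (25.81% beside 21.61%). TCACNCCAC was found in 1, that of SREBF2, beside 1.15% of all promoters. ACGTG was found in 4 of the 6 regulators, INSIG1, INSIG2, SCAP and STARD4, none of which passed the test by its brightest probe. CCAAT was in 3 of 5 sterol enzyme promoters whose gene rose, 2 of 2 whose gene fell and 7 of 8 whose gene did not pass. Over the 31 promoters, CCACG was in 8 of 9 whose gene rose, 2 of 5 whose gene fell and 12 of 17 whose gene did not pass. In the same order ACGTG was in 3 of 9, 0 of 5 and 5 of 17, and CCAAT in 5 of 9, 3 of 5 and 10 of 17. Whether these shares differ by direction was not tested. A match of letters is a description and no evidence that a factor binds there.

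The promoters shown are those of SREBF2 and INSIG2 and of 4 sterol enzymes, MSMO1 and CYP51A1 that rose and HMGCS1 and TM7SF2 that fell, to set the letters beside the direction. They are given on the strand of the gene, with TCACNCCAC, CCAAT and ACGTG in capitals in either orientation (so that ATTGG and CACGT are the reverse forms). They lie at SREBF2 (chr22:41832855-41833154, plus strand), INSIG2 (chr2:118088221-118088520, plus strand), MSMO1 (chr4:165327419-165327718, plus strand), CYP51A1 (chr7:92134428-92134727, minus strand), HMGCS1 (chr5:43313363-43313662, minus strand) and TM7SF2 (chr11:65111622-65111921, plus strand). SREBF2 and MSMO1 rose and HMGCS1 and TM7SF2 fell with CCAAT in all 4 promoters, while CYP51A1 rose with none of the capitals in its window. CCACG is not in capitals here. It lies in all the promoters shown except that of TM7SF2, and 3 times in that of CYP51A1.
SREBF2: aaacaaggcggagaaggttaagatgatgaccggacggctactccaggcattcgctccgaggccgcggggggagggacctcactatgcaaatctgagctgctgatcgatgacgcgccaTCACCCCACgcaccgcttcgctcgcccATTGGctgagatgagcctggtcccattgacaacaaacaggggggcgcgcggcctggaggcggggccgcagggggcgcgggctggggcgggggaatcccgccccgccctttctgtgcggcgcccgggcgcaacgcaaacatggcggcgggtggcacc
INSIG2: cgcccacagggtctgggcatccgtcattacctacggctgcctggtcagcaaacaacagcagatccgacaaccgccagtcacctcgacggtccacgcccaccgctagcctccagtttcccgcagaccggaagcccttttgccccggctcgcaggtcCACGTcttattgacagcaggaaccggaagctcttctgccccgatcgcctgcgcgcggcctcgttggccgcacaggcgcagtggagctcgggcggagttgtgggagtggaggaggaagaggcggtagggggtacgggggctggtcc
MSMO1: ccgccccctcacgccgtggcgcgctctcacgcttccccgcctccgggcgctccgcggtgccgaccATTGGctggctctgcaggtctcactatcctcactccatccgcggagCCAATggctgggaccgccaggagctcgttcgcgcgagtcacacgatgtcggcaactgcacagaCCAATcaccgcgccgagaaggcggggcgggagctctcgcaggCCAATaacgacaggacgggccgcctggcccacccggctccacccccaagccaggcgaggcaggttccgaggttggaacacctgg
CYP51A1: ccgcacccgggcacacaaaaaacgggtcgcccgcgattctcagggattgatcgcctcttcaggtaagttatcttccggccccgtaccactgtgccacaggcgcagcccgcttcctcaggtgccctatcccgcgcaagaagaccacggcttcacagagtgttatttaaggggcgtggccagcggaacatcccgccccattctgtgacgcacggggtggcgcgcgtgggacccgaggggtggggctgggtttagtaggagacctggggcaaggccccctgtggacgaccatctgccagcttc
HMGCS1: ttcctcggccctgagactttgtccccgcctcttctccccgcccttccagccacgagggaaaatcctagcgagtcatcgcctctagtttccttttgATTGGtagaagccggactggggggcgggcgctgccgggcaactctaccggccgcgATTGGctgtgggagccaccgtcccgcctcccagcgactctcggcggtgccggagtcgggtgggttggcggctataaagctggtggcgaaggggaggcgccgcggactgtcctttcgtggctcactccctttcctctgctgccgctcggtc
TM7SF2: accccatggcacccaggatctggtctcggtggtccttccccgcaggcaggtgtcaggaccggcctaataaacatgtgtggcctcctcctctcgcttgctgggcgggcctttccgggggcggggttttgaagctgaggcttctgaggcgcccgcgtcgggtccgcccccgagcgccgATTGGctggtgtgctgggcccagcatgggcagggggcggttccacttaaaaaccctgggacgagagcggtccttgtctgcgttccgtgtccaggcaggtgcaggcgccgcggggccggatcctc

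Among the 8 genes of fatty acid synthesis, elongation, desaturation and activation, ACLY rose, FASN, FADS1 and ACSL3 fell, and 4 did not pass, with a median change of -0.21. A call was made for 50% of them, beside 46.4% of all genes. ACLY, which makes cytosolic acetyl-CoA from citrate for both sterols and fatty acids, had levels of -0.13, -0.23 and -0.03 in shCtrl and 0.64, 0.62 and 0.61 in shXBP-1s. It was 1.68-fold higher in shXBP-1s (log2 fold change 0.75 ± 0.06, adjusted p = 3.45e-05), the largest rise by a brightest probe among the 36 genes. FASN, the synthase that builds palmitate, moved the other way. Its levels were 2.55, 2.47 and 2.45 in shCtrl and 1.88, 1.86 and 1.87 in shXBP-1s, and it was 1.54-fold lower (log2 fold change -0.62 ± 0.04, adjusted p = 2.24e-05). ACACA, the acetyl-CoA carboxylase whose step lies between ACLY and FASN, changed by 0.03 on its bright probe (95% interval -0.08 to 0.15, adjusted p = 0.644), and its dim probe fell by 0.31 ± 0.10 (adjusted p = 0.0388). The dim ACACA probe lost its call when any array other than shCtrl 2 was left out, with changes between -0.35 and -0.25.

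ACSL3, which activates fatty acids at the endoplasmic reticulum and on lipid droplets, had levels of 1.76, 1.34 and 1.64 in shCtrl and 0.62, 0.59 and 0.74 in shXBP-1s. The shCtrl samples were more spread than the shXBP-1s samples, with no overlap, and ACSL3 fell by 0.93 ± 0.10 (adjusted p = 2.2e-04). The desaturase FADS1, which acts on polyunsaturated fatty acids, fell by 0.24 ± 0.05 (adjusted p = 0.00496). This fall comes with the scaling, since FADS1 before it read 2147, 2335 and 2236 in shCtrl and 2460, 2269 and 2140 in shXBP-1s. Its neighbour FADS2 changed by -0.18 without passing (adjusted p = 0.103). Without shCtrl 1, the only control on the slide of the shXBP-1s samples, FADS2 passed at -0.24. With the slide as a block it read -0.05. SCD, the desaturase that makes oleate, had levels of 0.23, -0.26 and -0.05 in shCtrl and -0.24, -0.35 and -0.38 in shXBP-1s, which overlapped at the lowest shCtrl sample. Its change of -0.29 did not pass (95% interval -0.55 to -0.03, adjusted p = 0.0744). SCD leaned on single shCtrl samples, with -0.16 without shCtrl 1 (adjusted p = 0.124) and -0.41 without shCtrl 2 (adjusted p = 0.013). With the slide as a block it passed at -0.55 (adjusted p = 0.00478). ELOVL6, an elongase, changed by 0.04.

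Of the 5 genes of glycerolipid and phospholipid synthesis, PCYT1A and CEPT1 rose, CHKA and LPIN1 fell and DGAT2 did not pass (80% with a call, beside 46.4% of all genes). CHKA, PCYT1A and CEPT1 act in turn in the route from choline to phosphatidylcholine. CHKA, the kinase that commits choline to it, had levels of 1.44, 1.56 and 1.20 in shCtrl and 0.74, 0.70 and 0.72 in shXBP-1s, and fell by 0.68 ± 0.09 (adjusted p = 4.17e-04). PCYT1A, the cytidylyl transferase of the rate-limiting step, had levels of -1.87, -2.02 and -1.95 in shCtrl and -1.46, -1.54 and -1.49 in shXBP-1s. It rose by 0.44 ± 0.06 (adjusted p = 6.03e-04). CEPT1, which makes phosphatidylcholine and phosphatidylethanolamine in the last step, rose by 0.38 ± 0.07 (adjusted p = 0.00224). The kinase was thus lower while PCYT1A and CEPT1 were higher. CHPT1, not among the 36 genes and named after its value was seen, carries out the same last step as CEPT1 and fell by 0.14 ± 0.05 (adjusted p = 0.0497). Before scaling, CHPT1 read 299, 337 and 320 in shCtrl and 394, 351 and 307 in shXBP-1s. These signals overlap, so the CHPT1 fall comes with the scaling. Under normexp background correction, which moved the median of all probes from -0.02 to -0.41, CEPT1 read -0.01 and PCYT1A 0.12, without passing.

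LPIN1, a phosphatidate phosphatase, fell by 0.23 ± 0.04 on its bright probe (adjusted p = 0.00449), and its very dim probe, with signals of 18.3 to 26.8, changed by 0.00 (95% interval -0.29 to 0.29). Before scaling, the bright LPIN1 probe read 925, 986 and 987 in shCtrl and 1088, 991 and 918 in shXBP-1s. These signals overlap, so its fall comes with the scaling. DGAT2, which makes triglyceride, had levels of -3.39, -3.53 and -3.37 in shCtrl and -3.51, -3.64 and -3.79 in shXBP-1s. These overlapped, and the change of -0.22 did not pass (95% interval -0.44 to 0.00, adjusted p = 0.107). It passed at -0.12 under normexp with quantile normalization (adjusted p = 0.0432). Array by array values of INSIG2, ACLY, ACSL3, CHKA, PCYT1A, CYP51A1 and LBR were chosen for printing after they were seen.

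Other genes of lipid metabolism were read in 3 incomplete lists. Of 24 further sterol, isoprenoid and SREBP processing genes, 6 rose and 6 fell (50% with a call, beside 46.4% of all genes), with a median change of 0.05 and none at 2-fold. MYLIP, a ubiquitin ligase for lipoprotein receptors, fell by 0.60 ± 0.05 (adjusted p = 6.79e-05) and FAXDC2, a sterol hydroxylase family member, fell by 0.49 ± 0.06 (adjusted p = 2.84e-04). COQ2 of ubiquinone synthesis rose by 0.44 ± 0.06 (adjusted p = 5.7e-04), and ERLIN2, which acts in the degradation of sterol-regulated membrane proteins, rose by 0.39 ± 0.06 (adjusted p = 9.03e-04).

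Of 27 further fatty acid genes with a tested probe among 29 listed, 6 rose and 10 fell (59.3% with a call, beside 46.4% of all genes), with a median change of -0.11. The falls include THRSP, well above background on the 3 shCtrl arrays and on 1 shXBP-1s array. THRSP thus entered the test only through the group where it was high, and no p-value is read from it. They also include ELOVL5 by its brightest probe (-0.16), whose other probe rose by 0.28, both past the test. These 2 genes were named after their values were seen. ACSL5, another fatty acid activating enzyme, was 2.17-fold lower in shXBP-1s (log2 fold change -1.12 ± 0.05, adjusted p = 2.67e-06), with levels of 1.54, 1.60 and 1.58 in shCtrl and 0.39, 0.49 and 0.48 in shXBP-1s. ME1, which supplies NADPH, rose by 0.52 ± 0.05 (adjusted p = 1.29e-04), the elongase ELOVL1 by 0.37 ± 0.05 (adjusted p = 6.78e-04) and the dehydratase HACD1 by 0.38 ± 0.06 (adjusted p = 0.00126).

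Of 38 further glycerolipid and phospholipid genes, 12 rose and 13 fell (65.8% with a call, beside 46.4% of all genes), and 4 passed at 2-fold, beside 5.18% of all genes. The falls include SELENOI, named after its values were seen. Its brightest probe fell by 0.16 ± 0.04 (adjusted p = 0.0137), while its other probe rose by 1.37 ± 0.06 (adjusted p = 2.67e-06). MGLL, the monoglyceride lipase, was 2.64-fold higher in shXBP-1s on its brighter probe (log2 fold change 1.40 ± 0.07, adjusted p = 4.44e-06), with levels of 0.56, 0.48 and 0.51 in shCtrl and 1.80, 1.90 and 2.06 in shXBP-1s, and its other probe rose by 1.48 ± 0.07. LIPE, hormone-sensitive lipase, was 2.70-fold lower (log2 fold change -1.43 ± 0.11, adjusted p = 3.84e-05). PLIN2, a coat protein of lipid droplets, rose by 1.06 ± 0.08 (adjusted p = 2.99e-05) from dim signals of 31.2 to 35.1. PCYT1B, the paralog of PCYT1A, gave signals at the edge of detection. Its tested probe was well above background on none of the shCtrl arrays and on the 3 shXBP-1s arrays. It thus entered the test only through the group where it was high, and no p-value is read from it. It is still counted among the 4 that passed at 2-fold. By that probe alone, with shCtrl set no lower than the edge of detection, PCYT1B was at least 2.88-fold higher in shXBP-1s. The 3 shXBP-1s signals of that probe, 12.5, 9.56 and 55.7, differed widely, and without shXBP-1s 3 the bound was 1.58-fold. The other PCYT1B probe, detected on 2 arrays of each group and not tested, overlapped between groups, with signals of 2.04, 8.70 and 7.51 in shCtrl and 14.9, 11.7 and 6.63 in shXBP-1s.

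Quantile normalization, the deposited values and normexp with quantile normalization kept the sign and the call of all 18 genes. Normexp alone kept 16 signs and 8 calls, among them HMGCS1, SQLE, LSS, CYP51A1, ACLY, FASN, ACSL3 and CHKA. With the slide as a block, which compares the shXBP-1s samples with shCtrl 1 alone, 16 of the 18 genes kept their calls. In that fit the lone control is assumed to vary like the other samples, and the signs were fixed beforehand by groups that do not overlap. It gave SREBF2 at 0.59, ACLY at 0.75, FASN at -0.68 and HMGCS1 at -0.69.

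**Figure D4:**
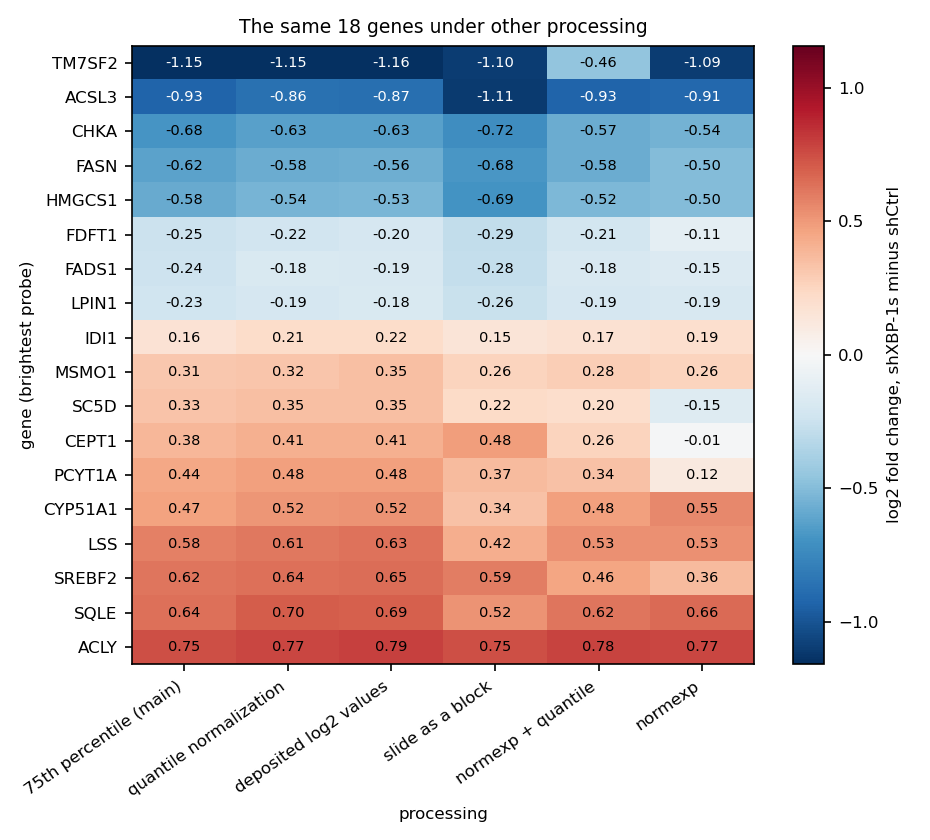
Log2 fold change (shXBP-1s minus shCtrl, colour and number) of the 18 genes that passed the test (rows, brightest probe) under 6 ways of processing the arrays (columns). Signs were the same in all columns for 16 genes, whereas SC5D and CEPT1 read -0.15 and -0.01 under normexp alone and TM7SF2 read -0.46 under normexp with quantile normalization.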

How the data were processed

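RNA of 3 shCtrl and 3 shXBP-1s samples of CAL-27 cells was measured on 1-colour Agilent arrays, 1 per sample, and samples were grouped by their titles. The authors deposited Agilent Feature Extraction 11.0.1.1 output per array, in which the processed signal is an intensity after background subtraction with no scaling between arrays, beside the median spot and background intensity. The deposited log2 table, by probe, is the product of RMA per the submitters' processing notes, and the methods give no detail of it. The methods state no normalization or threshold for the arrays and name t-tests for the study. The labels describe a NimbleGen labelling procedure, although the array is Agilent.

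Each array was scaled by subtracting, on the log2 scale, the 75th percentile of its processed signals without control spots. Non-uniform and population outlier spots (230 to 377 per array) were dropped before averaging per probe. A probe counted as well above background where over 50% of its spots did. Testing covered the 27624 probes so detected on all 3 arrays of either group, in R 4.3.3 and limma 3.58.1 (lmFit, eBayes with trend), 2-sided, with Benjamini-Hochberg adjustment over all of them and a threshold of 0.05. SE is limma's standard error. Where a gene had several tested probes, the one of highest mean signal stood for it. An exact permutation test of 1 probe could not go below p = 0.1 here. The number of arrays limits the precision.

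Probe accessions were matched to RefSeq symbols of GRCh38.p14, for 25771 of 34127 probes. The array annotation is for hg19, so no probe positions are given, and promoters came from the RefSeq table. No column without a sample was used (0 found).

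The genes and lists were chosen with earlier results of these data known. By the rule for named genes, all 36 are given, with values on each array for those at 2-fold and for INSIG1, SREBF1, SREBF2, HMGCS1, SQLE, FASN, SCD and DGAT2, and up to 4 genes of each further list, those at 2-fold first.

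Alternatives were normexp background correction (offset 50) on the median spot intensity with or without quantile normalization, quantile normalization alone, the deposited log2 table, no filter or a stricter filter on dim probes, limma without trend, a threshold of 0.01, the methods' t-test, the replicate number or slide as a block, the mean over probes and leaving out each array. Centring on the median of detected probes was added after seeing the data. limma was tested on simulated data.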

Additional observations from a re-analysis of the deposited data

How the results depend on the processing

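Quantile normalization, the deposited log2 values, limma without trend, median centring and a filter on detection on all 6 arrays changed no call among the 36 genes. Normexp background correction, which moved the median of all probes from -0.02 to -0.41, left 10 probes past the test (4 higher, 6 lower) and 9 genes (4 higher, 5 lower), with 0 at 2-fold by limma, also at an unadjusted p below 0.05 (15 genes in all). The calls it ended include TM7SF2 (-1.09), SREBF2 (0.36), FDFT1, FADS1, LPIN1, IDI1, MSMO1 and PCYT1A, and it reversed CEPT1 (-0.01), SC5D (-0.15) and the dim SREBF1 probe (-0.14). The cause was not tested. With quantile normalization added, 0 genes passed limma at 2-fold, adjusted or not. The slide as a block gave 2 at 2-fold, ACSL3 (-1.11) being added. The median change of the genes was 0.026 under normexp with quantile normalization, 0.041 under quantile normalization and 0.044 with the deposited values. The adjusted t-test ended 2 probe calls (the dim probes of ACACA and SREBF1). The mean over probes gave 20 genes, 10 higher and 10 lower.

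Leaving out each array in turn gave 19 to 23 probes (10 to 12 higher, 9 to 12 lower), 17 to 19 genes (9 to 10 higher, 8 to 9 lower), 1 to 2 genes at 2-fold and a median change of -0.032 to 0.017. The count at 2-fold was 2 without shCtrl replicate 2, and the median was -0.032 without shCtrl replicate 3. The bright SREBF1 probe passed without shXBP-1s replicate 3 (-0.21).

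With a replicate block, 23 probes (12 higher, 11 lower) and 19 genes (10 higher, 9 lower) passed, 1 of them at 2-fold, with a median change of 0.001. SCD was gained (adjusted p = 0.0239) and the dim ACACA probe lost. The labels share replicate numbers between the groups, but same-numbered samples did not deviate together (correlations of -0.016, 0.117 and -0.116), and not every sample correlated best with its own number. The dimmest of the 43 probes, that of LPIN1, had the widest standard error (0.13).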
